A study of Arabidopsis thaliana with 12 samples.

Results

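The transcript response of wild-type Arabidopsis thaliana to low water potential is described here across all genes measured. It was chosen from the sample labels alone, as the arrays of the accession Col-0 at -1.2 MPa set against those at -0.25 MPa, which made 6 of the 12 arrays of the series. The other 6 arrays hold the mutant hai1-2 under the same plate conditions. Seedlings of both genotypes were 7 days old when moved, grew on vertical plates without sugar under continuous light, and were harvested whole after 96 h, so that shoot and root RNA were mixed. The stressed group, Col-0 at -1.2 MPa, stood on agar infused with polyethylene glycol, a polymer too large to enter the cell wall that lowers the water potential of the medium. The control group, Col-0 at -0.25 MPa, was moved to fresh medium without it. Each group held 3 arrays, 1 from each of 3 independent experiments, and array values below are given in the order of experiments 1, 2 and 3.

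Water potential measures how strongly water is held, and a plant on a medium of low potential must lower its own to keep taking up water. Plants are known to do so by accumulating solutes such as sugars and proline, by adjusting cell walls so that tissue can hold water or continue to grow, and by making proteins that protect membranes and other proteins while water is scarce. Many of these changes run through the hormone abscisic acid (ABA), while the building of chloroplasts and the growth of leaves are commonly cut back.

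The median signal of the 6 arrays lay between 197 and 212, and pairs of arrays correlated at 0.980 to 0.982 within the stressed group, 0.969 to 0.971 within the control group and 0.922 to 0.933 between them. The ratio of 5′ to 3′ signal of GAPDH, a sign of RNA integrity, was 0.756 to 0.952 on stressed and 0.983 to 1.02 on control arrays, so the groups did not overlap, and its part in the changes below was not tested. A second GAPDH probe pair overlapped, at 0.690 to 1.15 on stressed and 0.438 to 0.916 on control arrays. On the hai1-2 arrays the first ratio ran the other way, at 1.05 to 1.16 on stressed and 0.850 to 1.03 on control arrays. The actin ratio was lowest on Col-0 control replicate 3, at 0.268. Without that array, 3073 probe sets rose and 2593 fell.

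Probe sets were called at a limma adjusted p under 0.05, on a log2 scale of signal plus 16, with variances shared by all 12 arrays. Of 17059 tested, 3083 rose at -1.2 MPa, which is 18.1% of them, and 2755 fell, 16.1%. These 2 shares are the background against which each group of genes is set below. All 3 stressed arrays lay above all 3 control arrays for 24.5% of probe sets, and below them for 20.2%. The experiments separately put 1640, 1581 and 1601 probe sets at least 2-fold higher at -1.2 MPa and 1347, 1536 and 1704 at least 2-fold lower. Among called probe sets, 3040 of the risen and 2734 of the fallen had the same sign in all 3 experiments.

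Most called changes were small, with a median log2 change of 0.85 among the risen and -0.95 among the fallen, but the upper tail was the longer one. A rise of at least 16-fold was found for 55 probe sets and a fall of that size for 12, while at least 4-fold the numbers were 297 and 272. The probe sets that rose at least 2-fold held 10.8% to 11.8% of all signal on stressed arrays, against 3.05% to 3.16% on control arrays. Those that fell at least 2-fold held 5.26% to 5.37% on stressed arrays, against 14.9% to 16.6% on control arrays. As these probe sets were chosen by their change, the shares only describe the signal they held, which does not count transcripts. On the 5 nuclear chromosomes 16.3% to 19.1% of probe sets rose and 14.4% to 15.5% fell.

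**Figure D1:**
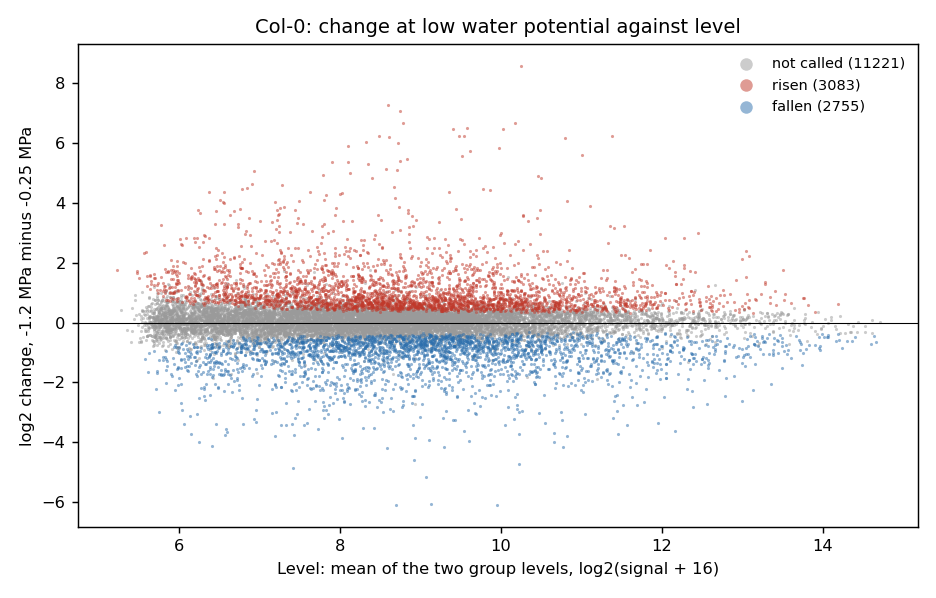
The log2 change of 17059 probe sets in Col-0, -1.2 MPa minus -0.25 MPa, is plotted against their level, log2 of signal plus 16; each point is 1 probe set, red where risen (3083), blue where fallen (2755) and grey where not called. Rises reach further from 0 than falls, with 55 probe sets at 16-fold or more above and 12 below.

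Nuclear genes for the photosynthetic apparatus fell together. Of 47 tested genes in 5 groups, 36 fell and 1 rose, with a median log2 change of -0.78, and with medians of -0.85, -0.74 and -0.88 in the 3 experiments. All 8 nuclear subunits of the photosystems and their light-harvesting antennae fell, by a median of -0.71. PSBY (AT1G67740), a small protein of photosystem II, had signals of 5086, 5376 and 4535 on stressed arrays, against 15496, 16570 and 9821 on control arrays, a log2 change of -1.45 ± 0.18 (SE, 3 arrays per group, adjusted p = 3.66e-05). The highest stressed array lay well below the lowest control. PSAE-1, a stromal subunit of photosystem I chosen after its values were seen, was the least changed of the 8 at -0.40 ± 0.15. Its call ended under 12 alternatives, with adjusted p from 0.0576 with only the 6 Col-0 arrays to 0.250 with quantile normalization. Among these were the replicate block (0.0612) and leaving out any 1 of 5 Col-0 arrays, all but control replicate 1. The call of LHCB4.1, an antenna protein, ended under 5, which were quantile normalization, the replicate block with only the 6 Col-0 arrays, and leaving out control replicates 1 or 2 or stress replicate 2 (adjusted p = 0.0537 to 0.0711).

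The genes that make chlorophyll followed the same direction. Of 14 tested genes of tetrapyrrole synthesis, 10 fell and none rose, with medians of -0.80, -0.99 and -0.95 in the 3 experiments. CHLM (AT4G25080), the methyltransferase of the magnesium branch that leads to chlorophyll, had 2112, 1674 and 1935 on stressed arrays, against 7695, 8008 and 5080 on control arrays (-1.83 ± 0.18, adjusted p = 3.57e-06). HEME1 (AT3G14930), the uroporphyrinogen decarboxylase upstream of both the chlorophyll and the heme branch, changed by -1.27 ± 0.18. HEMB1 (AT1G69740), an enzyme near the start of the pathway that was chosen after its values were seen, had 1411, 1338 and 1484 on stressed arrays, against 3377, 3096 and 3279 on control arrays. SIRB, which makes siroheme, a cofactor of nitrite and sulfite reduction, is on a side branch of the same pathway and was not called at -0.21 ± 0.12 (95% interval -0.48 to 0.06).

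Factors that assemble the photosystems or steer electron flow fell in 9 of 14 cases, with a median of -0.77. CYTC6A, a cytochrome of the thylakoid lumen, averaged 297 ± 35.9 in stressed and 809 ± 103 in control seedlings (SD, n = 3 each; -1.40 ± 0.17). HCF101, which supplies iron-sulfur clusters to photosystem I, changed by -1.27 ± 0.21. PIFI, linked to the chloroplast NDH complex, was not called, at 3957, 4945 and 4038 on stressed arrays, against 4485, 3669 and 4711 on control arrays. The single rise of the group, TAAC (a thylakoid ATP/ADP carrier, 0.44 ± 0.16), lost its call under 13 alternatives. Among these were the replicate block (adjusted p = 0.0513) and leaving out any 1 of 5 Col-0 arrays, all but control replicate 1 (0.0582 to 0.159). The 3 Calvin cycle genes tested, a group chosen after its values were seen, all fell. Phosphoribulokinase, PRK, had 5348, 5505 and 4484 on stressed arrays, against 13575, 12024 and 13525 on control arrays, and sedoheptulose bisphosphatase, SBPASE, changed by -1.30 ± 0.12. RCA, the activase of Rubisco, changed by -0.63 ± 0.12.

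Of 8 nuclear genes for the chloroplast NDH complex, which returns electrons to the plastoquinone pool, and for the factors that edit its messages, 6 fell. NdhN (AT5G58260) had 510, 527 and 468 on stressed arrays, against 1940, 1408 and 2032 on control arrays (-1.79 ± 0.16). NdhL changed by -1.21 ± 0.20. NdhS, the subunit that binds ferredoxin, was not called at 0.09 ± 0.21, with overlapping arrays. The number of falls was 3 without control replicate 1, stress replicate 2 or stress replicate 3.

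Genes of the plastid genome were seldom called in Col-0. Of 60 plastid-encoded genes for photosystems, NDH, ATP synthase, ribosome and polymerase, 2 fell and none rose with limma, and 6 had an unadjusted p under 0.05. Their median change was -0.30, and 48 of the 60 were below 0. The median differed between experiments, at 0.14, -0.21 and -0.87, and the median SE was 0.31, against 0.17 for the 47 nuclear genes. psbK (5997 ± 1845 in stressed and 10585 ± 2318 in control seedlings, -0.84 ± 0.23) and psbE (-0.63 ± 0.20), both of photosystem II, were the 2 that passed. psbK was not called without stress replicate 3 (-0.58), nor psbE without control replicates 1 or 2 or stress replicates 1 or 2 (-0.45 to -0.62). With the experiment as a replicate block, 4 photosystem genes and 3 of the NDH and ATP synthase genes fell, and with median centring 4 and 1. The count of fallen photosystem genes was 1 with quantile normalization and without any 1 of stress replicates 1 to 3 or control replicate 2, and without control replicate 2 another of them rose. In the other plastid groups, 1 NDH or ATP synthase gene fell without stress replicate 1 or control replicate 1, and 1 ribosomal or polymerase gene without stress replicate 1 or control replicate 2. psaA, for a core protein of photosystem I, was chosen after its values were seen. It had 3623, 6685 and 855 on stressed arrays, against 7045, 8438 and 5570 on control arrays, and was not called at -1.32 ± 0.73. It was lower at -1.2 MPa in each of the 3 experiments, and it fell with the replicate block (adjusted p = 0.0314), as it did with the block and only the 6 Col-0 arrays. The difference between nuclear and plastid genes was not tested.

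**Figure D2:**
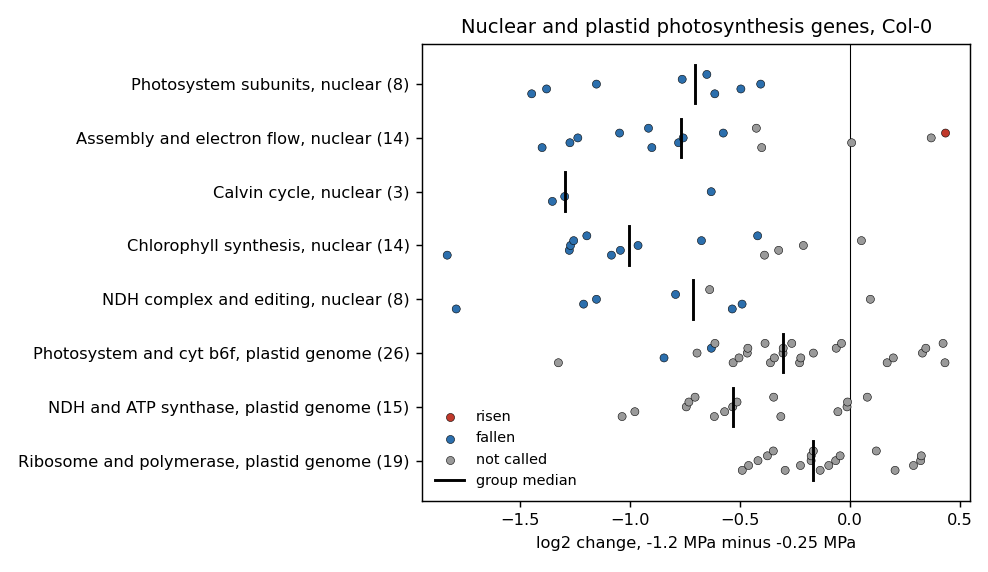
The log2 change in Col-0, -1.2 MPa minus -0.25 MPa, is shown for 8 groups of photosynthesis genes with the number tested in brackets; each point is 1 gene, coloured by its call, and black bars are group medians. The 5 nuclear groups hold 36 fallen genes of 47, and the 3 plastid groups 2 of 60.

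Markers of shoot and root tissue moved beside these groups. Of 12 shoot markers 4 were measured, all 4 also among the photosystem genes, and all 4 fell. Their summed signal was 28071 to 33916 on stressed arrays, against 45433 to 58028 on control arrays. Of 10 root markers 4 were measured, and 3 rose: EXPA7 and EXPA18, expansins of root hairs, and GH9C1, a root-hair endoglucanase, with EXPA7 at 449, 223 and 334 on stressed arrays, against 42.3, 64.6 and 47.7 on control arrays. PYK10, an abundant root beta-glucosidase, was not called at 0.18 ± 0.13, and the summed root signal overlapped between groups (16279 to 23936 on stressed, 16460 to 17021 on control arrays). In whole seedlings, fewer cells of a type and less RNA per cell cannot be told apart, and the part of the shoot to root balance in the falls above was not tested. The senescence marker SAG29 was the only one measured of 6 and the storage marker AT3G01570 the only one of 9. AT3G01570 stood at 66.6, 72.0 and 79.3 on stressed arrays, against 29.8, 9.1 and 36.6 on control arrays.

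Genes of redox control moved both ways. Of 10 thioredoxin and peroxiredoxin genes 5 fell and 3 rose. TRXF2 (-1.31 ± 0.21) and NTRC (-1.13 ± 0.14), chloroplast proteins that activate enzymes in the light, were among the falls, with NTRC, chosen after its values were seen, at 809 ± 101 in stressed and 1774 ± 13.8 in control seedlings. The rises were small and included mitochondrial PRXIIF (0.49 ± 0.12), and 1 was left without stress replicate 1 and none in the paired fit of only the 6 Col-0 arrays. Thylakoid ascorbate peroxidase TAPX had 566, 687 and 714 on stressed arrays, against 2000, 1528 and 1960 on control arrays (-1.46 ± 0.17). SAPX, a stromal and mitochondrial form of that hydrogen peroxide scavenger, rose by 0.68 ± 0.15, and GR1, a glutathione reductase, by 0.90 ± 0.17. GME, which makes the GDP-galactose used for vitamin C and cell wall sugars, changed by -0.92 ± 0.16. Of 5 glutaredoxins 2 rose, GRXC1 to 1104 ± 15.4 in stressed seedlings, against 530 ± 161 in controls. Of 11 glutathione S-transferases 1 rose and 2 fell, GSTU18 (-1.21 ± 0.16) and GSTU27 (-0.82 ± 0.18). The glutathione S-transferases that rose numbered 0 without stress replicate 1, 2 without control replicate 3 and 3 with the replicate block.

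Starch genes rose in 5 of 8 cases, with a median log2 change of 1.23 and medians of 1.10, 1.45 and 0.99 in the 3 experiments. The largest rises were 2 large subunits of ADP-glucose pyrophosphorylase, the enzyme that makes the glucose donor for starch. APL3 (AT4G39210) had 1490, 1928 and 1641 on stressed arrays, against 111, 90.1 and 127 on control arrays (3.77 ± 0.22, adjusted p = 4.28e-08). APL4 (AT2G21590) had 756, 1147 and 778 on stressed arrays, against 92.0, 42.5 and 83.8 on control arrays (3.38 ± 0.23). The alpha-amylase AMY1, chosen after its values were seen, rose by 1.77 ± 0.29. QQS, an orphan gene that affects starch content, was not called at -0.64 ± 0.24 (chosen after its values were seen). It fell with 64 added, with median centring, with the replicate block and without control replicate 2 (adjusted p = 0.00680 to 0.0485).

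SWEET transporters, pores that carry sucrose or hexoses across membranes, moved both ways: 4 of 11 rose and 4 fell. SWEET4 (AT3G28007), a hexose transporter, had 758, 1828 and 868 on stressed arrays, against 27.8, 52.4 and 40.4 on control arrays (4.29 ± 0.33, adjusted p = 5.11e-07). SAG29, also called SWEET15, was near 20 on control arrays and rose by 7.07. SWEET13, a sucrose exporter of the phloem chosen after its values were seen, rose by 1.48 ± 0.17. Its relative SWEET11, chosen in the same way, had 2378, 2726 and 2756 on stressed arrays, against 5825, 5404 and 5096 on control arrays (-1.05 ± 0.12). SWEET10 and SWEET2 (-1.83 ± 0.28) fell the furthest of the 4. SWEET17, a fructose transporter of the vacuole, was not called at -0.08 ± 0.21. Of 5 other sugar transporters, the tonoplast carrier TMT2, which loads sugar into the vacuole, had 1639, 1886 and 1686 on stressed arrays, against 669, 482 and 423 on control arrays, with no overlap.

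Genes that break down amino acids and other nitrogen compounds also moved both ways. Of 7 genes of branched-chain amino acid breakdown and the electron transfer flavoprotein, 2 rose and 1 fell. Their median log2 change was -0.26, with medians of 0.30, -0.43 and -0.56 in the 3 experiments. Those rises were 0 without stress replicate 2 and 1 with median centring or only the 6 Col-0 arrays. Of 6 genes of other amino acids, 4 rose and 1 fell. The bifunctional enzyme that degrades lysine, LKR/SDH (AT4G33150), had 2738, 3102 and 4000 on stressed arrays, against 427, 557 and 541 on control arrays (2.64 ± 0.18). DELTA-OAT, an ornithine aminotransferase of the mitochondrion, had 783, 699 and 745 on stressed arrays, against 451, 416 and 441 on control arrays. ASPGB1, an asparaginase that frees ammonium, was the fall, with 95.9, 101 and 90.5 on stressed arrays, against 614, 283 and 289 on control arrays. The ureide pathway, which recovers nitrogen from purines, had 2 falls of 4 genes: allantoinase ALN at 192, 215 and 161 on stressed arrays, against 967, 867 and 906 on control arrays (-2.19 ± 0.16), and allantoate amidohydrolase AAH at -2.10 ± 0.18. Urease, URE, rose by 0.68 ± 0.19 but not without control replicate 2 (0.45) or stress replicate 3 (0.63).

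Among 14 genes of organic acid metabolism 5 rose and none fell. ICL (AT3G21720), the isocitrate lyase of the glyoxylate cycle by which seedlings turn fat into sugar, had 1195, 421 and 811 on stressed arrays, against 112, 10.2 and 10.4 on control arrays (4.09 ± 0.57). The control array of experiment 1 lay far above the other 2, yet below every stressed array, and without single Col-0 arrays the change lay between 3.71 and 4.85. SDH1-1, of mitochondrial complex II, had 2707, 3289 and 3655 on stressed arrays, against 1212, 1303 and 1026 on control arrays (1.43 ± 0.18). The cytosolic isocitrate dehydrogenase cICDH was not called at -0.18 ± 0.14. Without stress replicate 3 the rises were 3, and 1 or 2 members fell with the lower 50% of probe sets removed, with median centring or without control replicate 2. NDB2, an alternative NADH dehydrogenase that bypasses complex I, rose to 1146 ± 57.2 in stressed seedlings, against 352 ± 112 in controls. Aldehyde dehydrogenases, which clear reactive aldehydes, rose in 3 of 8 cases, with ALDH7B4 at 6793, 6821 and 6503 on stressed arrays, against 1537, 1612 and 2043 on control arrays.

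Among genes for protective proteins the groups differed in their counts. Of 11 genes for LEA proteins, hydrophilic proteins of drying seeds and stressed tissue, 10 rose. LTI30, a dehydrin chosen here after its values were seen, had 5435, 9544 and 9298 on stressed arrays, against 645, 998 and 859 on control arrays. Of 15 chaperones and their partners 4 rose and 1 fell, and of 6 plastid chaperonins and proteases 1 rose and 2 fell. The risen shares of these 2 groups, 26.7% and 16.7%, lay near the 18.1% over all probe sets. The plastid falls were 1 with only the 6 Col-0 arrays and without control replicates 1 or 3 or stress replicates 1 or 2. The endoplasmic reticulum small heat shock protein ATHSP22.0 had 317, 780 and 674 on stressed arrays, against 37.4, 54.6 and 18.7 on control arrays, and HSA32, needed for lasting heat tolerance, had 299, 452 and 554, against 76.6, 109 and 112. Fes1B, a nucleotide exchange factor of HSP70, changed by -1.12 ± 0.27. Of 11 genes named for drought, cold, salt or dehydration, 6 rose and 1 fell. HIS1-3, a drought-inducible linker histone, had 4257, 3794 and 4429 on stressed arrays, against 489, 372 and 295 on control arrays (3.41 ± 0.20). XERICO, a RING protein that raises ABA levels when overexpressed, had 2752, 3146 and 3026 on stressed arrays, against 1083, 1200 and 843 on control arrays. HVA22C, of a family first found as ABA-induced in barley, was the fall (-0.84 ± 0.20), and DI19 was not called at 0.15 ± 0.18.

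All 4 jacalin-type lectins tested, sugar-binding proteins that gather around myrosinase when tissue is damaged, rose. JAL33 (AT3G16450) had 15541, 10140 and 12843 on stressed arrays, against 4926, 4294 and 4911 on control arrays (1.43 ± 0.15), and JAL23 rose by 2.33 ± 0.30. Of 6 class III peroxidases, enzymes that cross-link or loosen walls, 3 rose, or 1 without stress replicate 1, among them PRX52, which lost its call without that array (1.53, adjusted p = 0.0519). PRXR1, which had the brightest probe set of those not called, had 22698, 20650 and 24462 on stressed arrays, against 22522, 23384 and 28050 on control arrays.

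**Figure D3:**
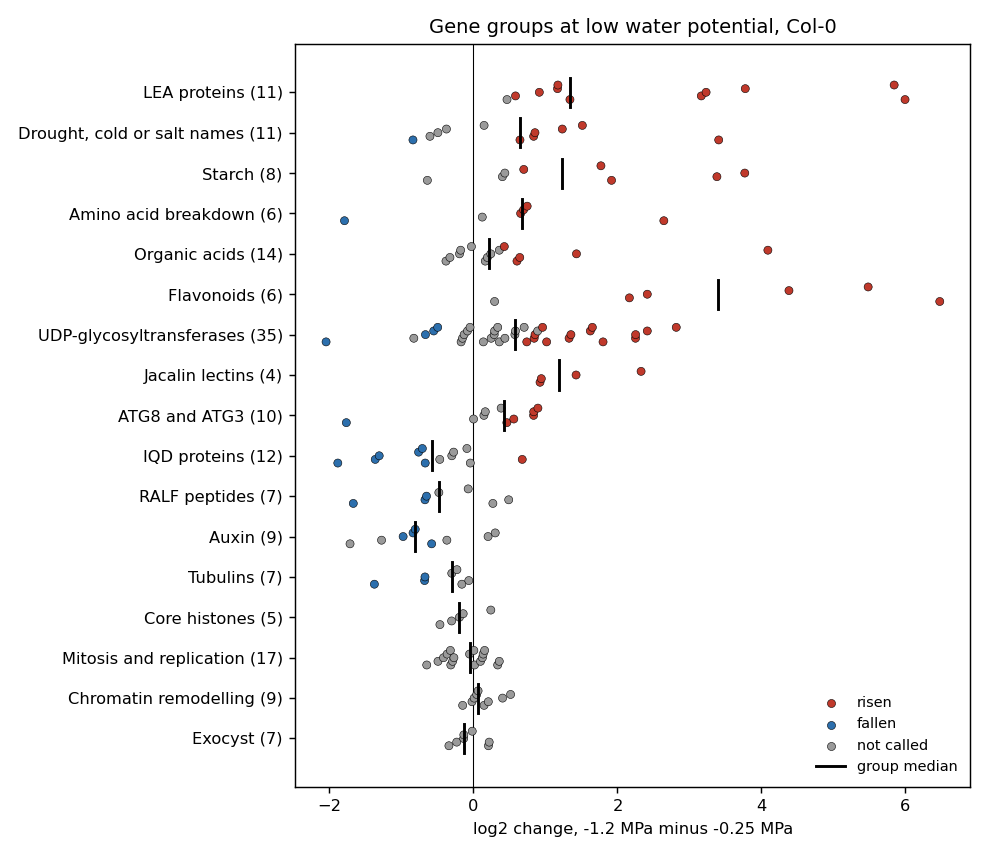
The log2 change in Col-0, -1.2 MPa minus -0.25 MPa, is shown for 17 gene groups with the number of genes tested in brackets; each point is 1 gene, coloured by its call, and black bars are group medians. LEA, starch, flavonoid and jacalin genes lie mostly to the right of 0, IQD and auxin genes mostly to the left, and the histone, mitosis, chromatin and exocyst groups hold no called gene.

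Of 6 genes of flavonoid synthesis 5 rose, with a median log2 change of 3.40. UF3GT (AT5G54060), which adds xylose to anthocyanins, had 2965, 3964 and 2247 on stressed arrays, against 42.3, 62.8 and 49.5 on control arrays. CHIL, a helper of chalcone synthase chosen after its values were seen, had 1433, 1522 and 1196, against 351, 282 and 258. UGT78D1, which adds rhamnose to flavonols rather than decorating anthocyanins, was the gene not called, at 0.29 ± 0.25. UDP-glycosyltransferases in general, which attach sugars to hormones, flavonoids and toxins, rose in 14 of 35 cases, or 40.0%, and fell in 4. UGT76E12 had 219, 195 and 180 on stressed arrays, against 2.2, 19.3 and 27.1 on control arrays, where the low control signals make the size of its change, 2.82 ± 0.39, depend on the constant added before the log. UGT72E2, which glucosylates the lignin precursors coniferyl and sinapyl alcohol, had 2639, 2477 and 2049, against 560, 529 and 388. UGT85A4 (-2.05 ± 0.31) and UGT88A1 (-0.67 ± 0.16) fell, and the falls were 2 with only the 6 Col-0 arrays and without stress replicates 1 or 3 or control replicate 3. CCR2, a cinnamoyl-CoA reductase of lignin synthesis, rose to 259 ± 20.1 in stressed seedlings, against 63.3 ± 3.96 in controls. Among 11 CYP71B cytochromes P450, CYP71B26 (1.91 ± 0.36) rose and CYP71B22 (-2.98 ± 0.43) fell.

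Most families of cell wall genes held calls both ways, against a background of 18.1% risen and 16.1% fallen over all probe sets. Apart from expansins and the wall acetylation proteins, each family had at most 2 rises and at most 2 falls. Such counts are too small to compare with that background. Of 14 expansins, proteins that loosen the wall in acid conditions, 7 rose and 3 fell. EXPA9 had 883, 936 and 894 on stressed arrays, against 276, 314 and 230 on control arrays (1.68 ± 0.17). EXPA4 (1.05 ± 0.23), EXPA15 (1.07 ± 0.24) and EXLB1 (1.44 ± 0.28), all chosen after their values were seen, rose as well. EXPA8 had 522, 324 and 396 on stressed arrays, against 2347, 975 and 1120 on control arrays, and the expansin-like EXLA2 changed by -2.09 ± 0.48. Among 7 xyloglucan endotransglucosylases, which cut and rejoin the tethers between cellulose fibres, XTH19 rose by 1.63 ± 0.33, while XTH16 had 110, 89.8 and 140 on stressed arrays, against 646, 1346 and 1178 on control arrays. CSLA03, a mannan synthase, had 159, 96.5 and 142 on stressed arrays, against 564, 907 and 858 on control arrays (-2.41 ± 0.26), and CSLD2, needed for root hairs, rose by 0.81 ± 0.22. The family of wall acetylation proteins named for trichome birefringence had 4 rises and 3 falls of 18. These shares, 22.2% and 16.7%, lay near the background. TBL45 had 72.4, 60.6 and 118 on stressed arrays, against 1949, 2426 and 2722 on control arrays. The rises of this family were 2 with the lower 50% of probe sets removed and without stress replicates 1 or 2 or control replicate 2. The pectin methylesterase ATPMEPCRD changed by -2.62 ± 0.29. The 3 root markers that rose in this material, EXPA7, EXPA18 and GH9C1, are themselves wall genes and count among these rises, and the part of the shoot to root balance here was not tested.

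**Figure D4:**
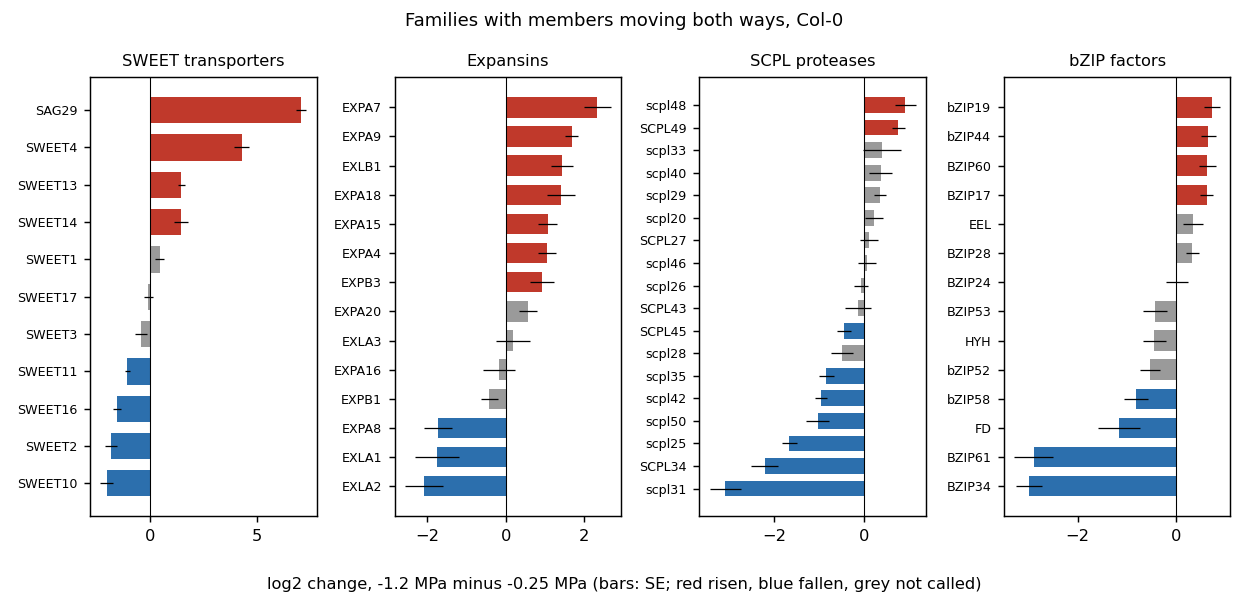
Bars give the log2 change in Col-0, -1.2 MPa minus -0.25 MPa, of each tested member of 4 families, with SE; red bars rose, blue bars fell and grey bars were not called. SWEET transporters run from SAG29 at 7.07 to SWEET10 at -2.01. Expansins, serine carboxypeptidase-like (SCPL) proteins and bZIP factors likewise hold called members on both sides of 0.

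Several families that act in cell growth had falls, beside 16.1% fallen over all probe sets. The groups are small, and no difference from that share was tested. Of 7 tubulins, the subunits of microtubules, 3 fell and none rose. TUB5 had 829, 1043 and 1070 on stressed arrays, against 2980, 2644 and 2117 on control arrays (-1.38 ± 0.16), while TUA6, with the brightest probe set of those not called, was at -0.06 ± 0.16. SP1L3, of a family that guides directional cell expansion along microtubules, changed by -0.89 ± 0.15. Its group of 8 microtubule proteins had 3 falls and 1 rise. The rise, of SPR1 (0.40), was lost under several settings, among them median centring and the replicate block. Of 17 myosins and actin-linked NET proteins, 2 rose and 1 fell. IQD proteins, calmodulin-binding scaffolds that sit on microtubules and the plasma membrane, fell in 6 of 12 cases, or 3 with the lower 50% of probe sets removed. iqd21 (AT3G49260) had 113, 145 and 157 on stressed arrays, against 618, 491 and 550 on control arrays (-1.88 ± 0.19), and IQD24 changed by -1.36 ± 0.22. IQD30 was the only IQD gene that rose, by 0.68 ± 0.13. RALF peptides, which alkalinise the wall and restrain growth, had 3 falls of 7, with RALFL33 at 975, 986 and 1254 on stressed arrays, against 2255, 5396 and 3285 on control arrays.

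None of 17 genes of mitosis and DNA replication, among them the Aurora kinases and the spindle checkpoint genes, was called with limma, and their median change was -0.05. With quantile normalization, median centring or the replicate block 2 of them fell, and 1 did without control replicate 1 or stress replicate 3. SIM, a cell cycle inhibitor of trichomes, had 764, 574 and 508 on stressed arrays, against 482, 483 and 687 on control arrays. None of 5 core histones was called either, with HTB4 at -0.14 ± 0.18. A p that misses the threshold does not show that these genes were equal, and the intervals of SIM (-0.26 to 0.57) and HTB4 (-0.53 to 0.24) show what size of change remains possible. Whether growth and division genes differ was not tested.

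Transcription factors of several families followed no common direction. Of 16 bHLH factors 1 rose and 2 fell, or 1 fell without stress replicates 1 or 2. SPCH, the bHLH factor that starts the stomatal lineage, had 46.7, 27.4 and 48.5 on stressed arrays, against 135, 109 and 139 on control arrays (-1.35 ± 0.23). Of 8 NGATHA, YABBY and growth factors 2 fell, or 4 without control replicate 3. YAB3, which marks the lower side of leaves, had 186, 181 and 187, against 414, 470 and 347. NGA2, a factor of leaf margin growth, changed by -1.03 ± 0.17. Among 11 MADS-box factors, AGL24, a promoter of flowering, had 55.5, 42.9 and 19.7 on stressed arrays, against 163, 177 and 152 on control arrays, and AGL87 changed by -1.24 ± 0.24.

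The bZIP factors went both ways, with 4 rises and 4 falls of 14. BZIP34 had 2.4, 2.9 and 4.0 on stressed arrays, against 114, 133 and 164 on control arrays, and the related BZIP61 had 91.0, 116 and 169, against 747, 1722 and 788. Both falls held without any 1 Col-0 array, though the count of fallen bZIP genes was 2 without control replicate 3 or stress replicate 3, with 1 added in place of 16 and with array weights, and 1 with the lower 50% removed. Rises were smaller: bZIP19, a zinc deficiency factor, by 0.73 ± 0.16, and bZIP44 by 0.65 ± 0.15. BZIP17 (0.62 ± 0.13) and BZIP60 (0.63 ± 0.17), membrane-bound factors of the unfolded protein response chosen after their values were seen, also rose, BZIP60 not without control replicate 1 (0.46, adjusted p = 0.0516). Of 6 WRKY factors, which act mostly in defence, WRKY6 rose by 1.02 ± 0.28. WRKY22 had 86.9, 97.0 and 63.7 on stressed arrays, against 117, 652 and 291 on control arrays, a fall that lay between -2.22 and -1.05 without single Col-0 arrays.

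Hormone genes were few among those named. GID1B, a gibberellin receptor, had 584, 813 and 610 on stressed arrays, against 214, 291 and 222 on control arrays (1.40 ± 0.20). Of 6 genes of gibberellin perception 3 rose, or 1 with median centring, array weights or only the 6 Col-0 arrays, and without stress replicate 2 or control replicate 3. Of 9 auxin genes 4 fell and none rose, or 2 fell with the lower 50% removed and without stress replicates 1 or 3 or control replicates 2 or 3. IAA18, a repressor of auxin response, had 730, 802 and 578 on stressed arrays, against 1004, 1420 and 1403 on control arrays. BSMT1, which methylates salicylic and benzoic acid, had 422, 225 and 163 on stressed arrays, against 1.8, 7.1 and 2.9 on control arrays.

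Thionins, small antimicrobial peptides, differed between near relatives. THI2.1 (AT1G72260), which jasmonate induces, had 1841, 832 and 2134 on stressed arrays, against 16.8, 38.6 and 42.7 on control arrays (4.99 ± 0.32). THI2.2 (AT5G36910) had 3.7, 11.7 and 19.3 on stressed arrays, against 250, 277 and 271 on control arrays (-3.39 ± 0.31). The stressed signals of THI2.2 and the control signals of THI2.1 are low, so the size of both changes depends on the added constant. PDF2.1, a defensin, rose by 2.84 ± 0.21, while LCR69, with the brightest probe set of those not called, was not called at 0.31 ± 0.25.

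Proteases, serine carboxypeptidase-like proteins and recycling genes changed member by member. BETA-VPE (AT1G62710), a vacuolar processing enzyme that matures seed storage proteins, had 1629, 1891 and 1307 on stressed arrays, against 146, 126 and 130 on control arrays (3.42 ± 0.19), while GAMMA-VPE of vegetative vacuoles had 3660, 4916 and 4809, against 4730, 4421 and 4035, and was not called. This group of 3 was chosen after its values were seen, and 2 of its members rose. ALPHA-VPE was the other rise, between 1.38 and 1.85 without single Col-0 arrays. Serine carboxypeptidase-like proteins fell in 7 of 18 cases and rose in 2. scpl31 had 56.0, 35.5 and 40.9 on stressed arrays, against 394, 732 and 395 on control arrays, and SCPL34 changed by -2.20 ± 0.29, against rises of 0.91 ± 0.23 for scpl48 and 0.76 ± 0.15 for SCPL49. Of 10 autophagy genes 5 rose, all ATG8 forms that coat the growing autophagosome. The count of rises was unstable, at 3 with only the 6 Col-0 arrays and without control replicate 1 or stress replicate 1 and at 1 without control replicate 2 or stress replicate 3. ATG8E fell, with 374, 304 and 238 on stressed arrays, against 685, 1178 and 1473 on control arrays. PUB19, a U-box ubiquitin ligase that dampens ABA and drought responses, had 902, 1070 and 927 on stressed arrays, against 41.5, 46.2 and 21.7 on control arrays (4.26 ± 0.29), and the ubiquitin-conjugating enzyme UBC30 rose by 1.29 ± 0.14.

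**Figure D5:**
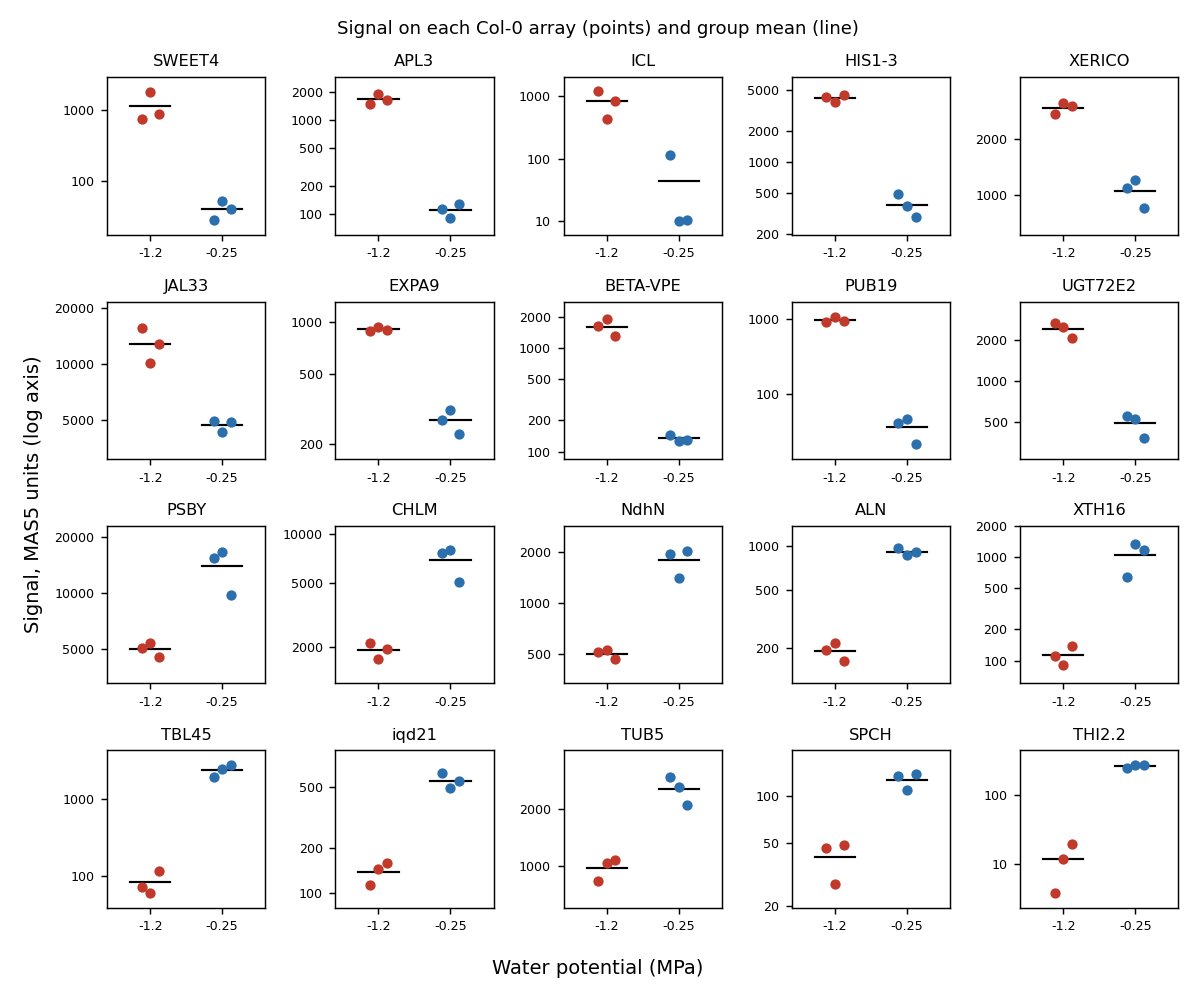
Signals on each of the 3 stressed (red, left) and 3 control (blue, right) Col-0 arrays are plotted on log axes for 20 genes named in the text, with the group mean as a line. In the first 2 rows every stressed array lies above every control array, and in the other 2 rows below.

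Beyond these groups, ranks 11 to 20 of the largest rises and falls among single genes held mostly loci without a name in the annotation used. EXO, which is linked to brassinosteroid-promoted growth, had 382, 184 and 784 on stressed arrays, against 1845, 10794 and 8318 on control arrays, and its change of -3.79 ± 0.65 lay between -4.57 and -3.29 without single Col-0 arrays. AT1G57590 had 1778, 2317 and 1768 on stressed arrays, against 70.1, 78.0 and 57.6 on control arrays, and AT1G80130 had 4932, 3747 and 4311, against 232, 138 and 187. AT5G50360 (4.63 ± 0.33) and AT1G09500 (5.07 ± 0.28) were below 11 on each control array.

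Signal itself was ranked only among called probe sets of 1 gene whose arrays did not overlap. The 7308 tested probe sets without a gene and the 355 with several were not ranked. Within that ranking, the 5 largest gains were those of AT3G53980, DFR, JAL33, AT4G16190 and AT1G13930. AT3G53980 had 10342, 11874 and 11343 on stressed arrays, against 1364, 1571 and 1760 on control arrays. AT1G13930 reached 18227 ± 3205 in stressed seedlings, against 10425 ± 2328 in controls, a log2 change of 0.82 ± 0.18. The largest loss in the same ranking was that of AT2G45180, with 2863, 3333 and 3623 on stressed arrays, against 19292, 20608 and 20925 on control arrays. ECS1, a cell wall protein, had 6169, 4199 and 5237 on stressed arrays, against 20369, 21234 and 22097. AT2G10940 had 894, 578 and 823, against 11303, 10837 and 8345. Probes differ in brightness, so these gains rank signal and not numbers of transcripts.

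At the other end, 94 probe sets, 0.551% of those tested, had a 95% interval of the log2 change within 0.32 of 0. These are the transcripts whose change was closely bounded around 0. The 5 brightest of them with 1 gene were AT3G58610 (8502 ± 313 in stressed and 8760 ± 485 in control seedlings, SD, n = 3 each), AT5G19510, AT3G11510, AT3G09630 and AT3G60770. AT3G58610 changed by -0.04 ± 0.11 and AT5G19510 by 0.07 ± 0.11.

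The response was set against that of hai1-2, measured on 6 other arrays, by the difference of the 2 changes. This difference was fitted without the replicate block, and its calls with the block were not tested. Deviations of same-numbered arrays correlated between the genotypes at 0.128 to 0.517 for controls and at 0.227 to 0.263 under stress. Without the block, the test of the difference called 1 of 17059 probe sets, 247723_at (change in Col-0 minus change in hai1-2 2.91 ± 0.27). The annotation used pairs it with no gene, but it is the probe set of HAI1, the gene that hai1-2 is named for. None of the 320 genes picked out for naming was called. An unadjusted p under 0.05 was found for 732 probe sets, less than the share of 0.05 that would pass if none differed. Over all probe sets, 75.8% of those that rose in Col-0 also rose in hai1-2, and 83.1% of those that fell also fell. Of the 36 nuclear photosynthesis genes that fell in Col-0, 31 also fell in hai1-2. Of the 60 plastid-encoded genes, 13 fell in hai1-2, against 2 in Col-0. In hai1-2 8 of the 15 plastid NDH and ATP synthase genes fell, and the median change of the 15 was -1.04. Rises shared with hai1-2 were 5 of 5 for starch, 13 of 14 for UDP-glycosyltransferases, 4 of 7 for expansins and 2 of 5 for organic acids. Shared falls were 6 of 6 for IQD and 2 of 4 for auxin genes. A gene called in 1 genotype alone is not shown to differ between them.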

How the data were processed

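Whole-seedling RNA was hybridised to one-colour Affymetrix arrays of 22810 probe sets, 1 array per sample. What was deposited is a table of linear signal intensities that the submitters' processing notes credit to MAS5. Its version and any filter are not stated there. As the trimmed mean came to 500.0 on each array, no further normalization was applied. No detection calls were used, and the number of arrays limits the precision.

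Analysis used log2(value + 16), which understates changes of weak genes. The 64 control probe sets were dropped, and so was the lowest 25% by mean (5687 probe sets, mean log2 below 5.67). A model of group means over the 12 arrays was fitted with limma (version 3.58.1, R version 4.3.3, intensity trend). The contrast of Col-0 at -1.2 against -0.25 MPa was tested two-sided, with Benjamini-Hochberg adjustment over 17059 probe sets. SE comes from this fit, and SD is over 3 signals. Tables were made with Python 3.11.15 and pandas 2.3.3. The fit was tested on simulated data.

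The platform annotation, updated through TAIR10.1 for names only, gives 1 gene for 13513 probe sets, several for 503 and none for 8730. Of 9283 genes tested, 1272 had a name beyond the locus, which limits the groups. Genes were put into 83 groups by symbol, with 738 of their 928 genes tested and the rest below the filter. A gene with several probe sets is given by the brightest. Members, groups and tests were chosen with earlier results of these data known, and the groups after the annotation was seen. Genes were named by 5 rules. In each group of at least 4 tested genes these were up to 2 largest rises and 2 largest falls, called and without overlap between arrays, and the brightest member not called. Added were ranks 11 to 20 of the rises and of the falls, and the 5 largest gains and 5 largest losses of signal. Both rankings took only called single-gene probe sets without overlap between arrays. The 5 brightest stable genes and all markers measured were also added. Others are said to be chosen after their values were seen.

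The design text has 1 sample of each group in each of 3 experiments, so replicate numbers pair samples. Deviations of same-numbered arrays correlated at -0.0232 to 0.0929 between the Col-0 treatments. Between genotypes they correlated at 0.128 to 0.517 for controls and at 0.227 to 0.263 under stress. Alternatives were other added constants, filters, scalings, variance models, array sets, the replicate block and leaving out each Col-0 array.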

Additional observations from a re-analysis of the deposited data

Results flagged for a closer look

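The probe set 247723_at was picked out because its change differed between the genotypes in the limma test of the difference. It is the probe set of HAI1, the gene that hai1-2 is named for, though the annotation used pairs it with no gene. It averaged 2967 ± 316 in stressed and 130 ± 34.8 in control Col-0 seedlings (SD, n = 3 each). The log2 change was 4.38 ± 0.19 in Col-0 and 1.47 ± 0.19 in hai1-2, and the difference, Col-0 minus hai1-2, was 2.91 ± 0.27 (limma adjusted p = 0.000898, with the probe sets tested as for the Col-0 contrast).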

How the results depend on the processing

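With other settings 2351 to 3225 probe sets rose and 2164 to 3058 fell, apart from the 2 below, and both counts stayed within 1.5 times the reported 3083 and 2755. With the replicate block, 3225 rose and 2889 fell. Leaving out 1 Col-0 array at a time gave 2381 to 3073 rises and 2245 to 2642 falls. Both counts moved further, by construction, with 1 probe set kept per gene (1596 risen, 1386 fallen) and with a 2-fold minimum added (1234 and 1258). Median centring turned the balance to 2626 rises against 3058 falls, and quantile normalization gave 2916 and 2950. Of the 320 genes picked out, 251 kept the same side of the threshold under each setting tried, 46 of the 233 called lost the call under at least 1, and 23 gained one. The log2 change turned sign for none of the 233 called and for 31 of the 87 not called. Low signal limits weak genes, whose change shrinks with the constant added. The comparison of promoter motifs that had been planned was not run.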

Other observations

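Groups not described above include several with few or no called genes. None of 7 exocyst subunits, which tether secretory vesicles, was called with limma, and neither was any of 9 chromatin remodellers, although 1 of these rose without control replicate 1. Of 12 subunits of the nuclear RNA polymerases 1 rose. That count was 0 with median centring, only the 6 Col-0 arrays or without control replicate 2 or stress replicates 2 or 3, 2 with array weights or without control replicate 3, and 3 without control replicate 1. Of 12 ubiquitin-specific proteases 3 rose and none fell. None of 6 glutamate receptor-like channels was called, with a median log2 change of -0.08. Of 11 TRM proteins, which recruit a complex that orders microtubules, 3 fell. The falls were 5 with quantile normalization, median centring or no intensity trend and 1 with the lower 50% removed, and 1 gene rose with only the 6 Col-0 arrays or without control replicate 1.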
